A study of Mus musculus with 20 samples.

Results

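The genes described here encode a molecular bridge across the synapse: 3 secreted cerebellins (Cbln1, Cbln2 and Cbln4), a pair of presynaptic neurexins that bind them (Nrxn2 and Nrxn3) and the postsynaptic delta receptor Grid1. They were found by their gene symbol in the count files, which gave 6 of 47729 genes, and the rule for membership used symbols, not measured values. RNA was sequenced from the cortex and the hippocampus of 5 WT and 5 Ube3aOE mice at P7, so that 20 libraries come from 10 mice, numbered 1 to 5 (WT) and 6 to 10 (Ube3aOE). All mice are labelled C57Bl/6J and include both sexes. Ube3aOE mice carry extra copies of Ube3a on a bacterial artificial chromosome, were taken from a single transgenic line, and overexpress the gene wherever its own control sequences act, not in a chosen cell type. Ube3a encodes an E3 ubiquitin ligase to which a role in transcriptional coactivation has also been ascribed, and the study asked whether its excess changes the levels of other transcripts.

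Cerebellins are small proteins of the C1q family that neurons release into the synaptic cleft. A cerebellin assembly binds a neurexin on the axon, provided that the neurexin transcript carries a particular spliced insert, and a delta receptor on the dendrite, so that the receptor, which by itself is not opened by glutamate, acts as an anchor. The best known case is in the cerebellum, where Cbln1 from granule cells maintains the contacts of parallel fibers with Purkinje cells. In the forebrain, Cbln1 and Cbln2 are typical of thalamic neurons, Cbln4 is found in the hippocampal formation, in retrosplenial cortex and in some interneurons, and Grid1, which encodes GluD1, is the main delta receptor.

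In the GRCm38 build of the mouse genome with GENCODE M21, the cerebellin genes are compact. Cbln1 (ENSMUSG00000031654) lies at chr8:87468405-87472609 on the minus strand, Cbln2 (ENSMUSG00000024647) at chr18:86711110-86718283 on the plus strand and Cbln4 (ENSMUSG00000067578) at chr2:172036233-172043466 on the minus strand. Their partners span far more of the genome and all lie on the plus strand: Nrxn2 (ENSMUSG00000033768) at chr19:6418731-6544169, Nrxn3 (ENSMUSG00000066392) at chr12:88722876-90334935, which is 1612 kb long, and Grid1 (ENSMUSG00000041078) at chr14:34820108-35583379. The exons of Cbln1, Cbln2 and Cbln4 overlap no exon of another gene and share no stretch of 50 bases with one, whereas 5.29% of such stretches in Nrxn2, 3.04% in Nrxn3 and 1.27% in Grid1 occur in another annotated gene. Exons of other genes overlap 6.44% of the exon bases of Nrxn2 and 3.48% of those of Nrxn3, both on the opposite strand, and 1.53% of those of Grid1 on the same strand. The strand setting of the counting is not given in the sources used here, so reads in these stretches are uncertain. Counts were made per gene, so the long and short forms of a neurexin and the splice forms that do or do not bind cerebellins are summed.

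The libraries held 14191093 to 16752326 counts on genes. Ube3a itself was at 54.0 to 76.8 CPM (counts scaled to each library's total on genes, with TMM factors) in the 10 WT libraries and at 129 to 194 CPM in the 10 Ube3aOE libraries, without overlap. All 5 hippocampal markers were higher in the hippocampus libraries, and of 5 neocortical markers 3 were lower there and 1, Rspo1, was higher. Several libraries stood apart in markers of tissue next to the region named in the label. In hippocampus, 8 thalamic markers summed to 580 CPM in mouse 4, 682 in mouse 7, 271 in mouse 8 and 1313 in mouse 10, against 186 to 209 in the other mice. Tcf7l2, which defines thalamic and habenular neurons, was at 226, 271, 46.5 and 563 CPM in these mice and at 2.8 to 6.2 CPM in the others. Mouse 2 stood apart by 5 neocortical markers (215 CPM, against 72.0 to 143 in the others) and by 4 subicular and retrosplenial markers (591 CPM, against 197 to 368). Mouse 9 had 528 CPM of 7 striatal markers, against 42.6 to 67.5 in the others, and choroid plexus markers were at 1974 CPM in mouse 7 and 351 CPM in mouse 9, against 10.0 to 33.9. In cortex, the libraries of mice 8 and 9 had 441 and 363 CPM of the subicular and retrosplenial markers, against 113 to 188 in the others, 152 and 145 CPM of 5 hippocampal markers, against at most 79.8, and 345 and 403 CPM of the neocortical markers, against 467 to 630. The cerebellar markers Gabra6, Pcp2, Barhl1 and En2 were at 0 or near it in every library, and Zic1, the fifth on that list, followed the thalamic markers. The results for the 6 genes are therefore given with all libraries and, as a choice made after these values were seen, without libraries that stood apart. The widest such choice left out 7 libraries, the hippocampus of mice 2, 4, 7, 9 and 10 and the cortex of mice 8 and 9, and it kept the hippocampus of mouse 8. The SEs and p-values of these fits do not account for the choice. Libraries left out include the highest ones of several members.

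Per kb of exon, Nrxn2 was by far the most abundant of the 6 transcripts, at 52.8 ± 3.6 CPM per kb (SD, n = 10) in cortex and 48.8 ± 7.0 in hippocampus. Next in cortex came Cbln1 (16.3 ± 3.3) and Grid1 (15.1 ± 0.72), whose libraries overlapped. Nrxn3 (10.0 ± 1.4) followed without overlap with Grid1, then Cbln2 (7.12 ± 1.8) and Cbln4 (5.18 ± 7.3), each overlapping the gene before it. The length used was that of all annotated exons of a gene together, 12605 bases for Nrxn3 and 5962 for Grid1. Their longest transcripts have 7922 and 5720 bases, so the place of Nrxn3 and its gap to Grid1 depend on the length chosen. Cbln4 ran from 0.95 to 22.4 CPM per kb and so also spanned the range of Grid1. In hippocampus the order was Nrxn2, Grid1 (14.7 ± 1.4), Cbln2 (13.5 ± 8.9), Cbln1 (12.9 ± 9.3), Nrxn3 (10.4 ± 1.6) and Cbln4 (8.07 ± 4.1), and below Nrxn2 all neighbours overlapped. Within each group of 5 mice Grid1 and Nrxn2 varied least, Nrxn3 more, and each of the 3 ligands more than Nrxn3. The SD of log2 CPM within a group of 5 mice was 0.05 to 0.18 for Grid1 and 0.10 to 0.18 for Nrxn2. It was 0.16 to 0.28 for Nrxn3, above the median of all genes in each of the 4 groups, and 0.28 to 0.89 for Cbln1, 0.31 to 0.88 for Cbln2 and 0.49 to 2.13 for Cbln4. The spread of Cbln4 in Ube3aOE cortex was above that of 99.9% of 14947 genes, and in WT cortex above that of 99.6%.

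**Figure D1:**
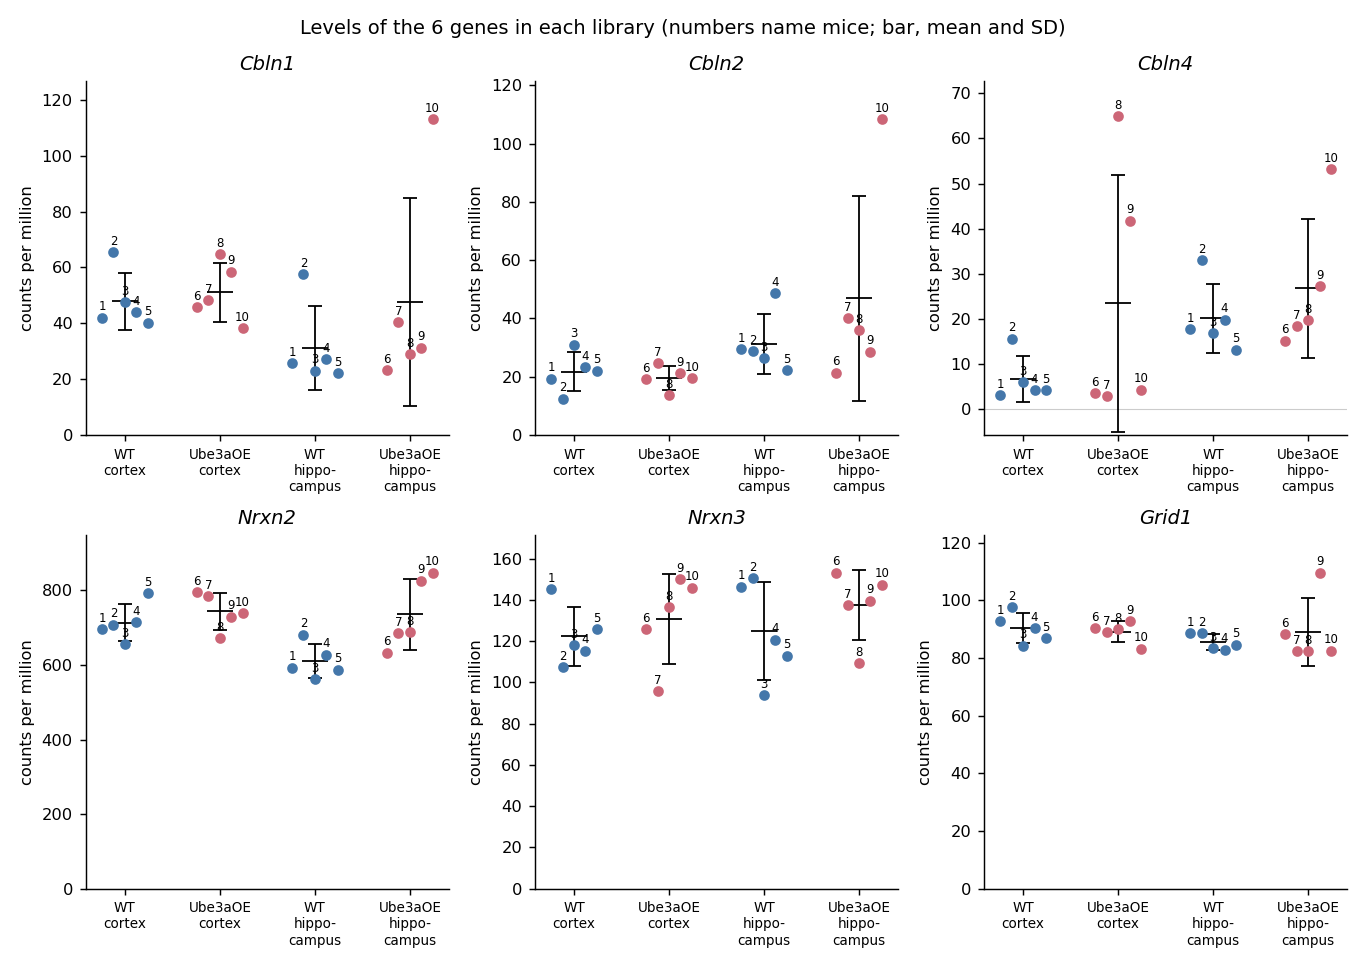
Level of the 6 genes in every library in CPM, by genotype and tissue (points are mice, named by number; blue WT, red Ube3aOE; bars show mean and SD, n = 5). Nrxn3 runs from 93.9 to 153 CPM and Grid1 from 82.3 to 110 CPM over all libraries, and single libraries set the upper end of the cerebellins: mouse 10 in hippocampus for all 3, mice 8 and 9 in cortex for Cbln4.

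Cbln2 was the only member that differed between the regions with all libraries, being 1.86-fold higher in hippocampus. In cortex it was at 19.3, 12.5, 31.0, 23.4 and 22.1 CPM in WT mice 1 to 5 and at 19.1, 24.6, 13.5, 21.1 and 19.4 CPM in Ube3aOE mice 6 to 10. In hippocampus it was at 29.5, 28.8, 26.4, 48.7 and 22.3 CPM in WT and at 21.4, 40.1, 35.9, 28.6 and 108 CPM in Ube3aOE. The genotypes overlapped in both tissues, and in hippocampus the 4 highest libraries, those of mice 10, 4, 7 and 8, were the same 4 with the highest Tcf7l2. The log2 difference between hippocampus and cortex was 0.89 (SE 0.26, 95% interval 0.34 to 1.44, adjusted p = 0.00848, edgeR's quasi-likelihood test over 15661 genes), and 9 of 10 mice had more Cbln2 in hippocampus, mouse 3 being the exception. Of all genes tested, 50.7% differed between the regions, 26.2% being higher and 24.5% lower in hippocampus, so that 1 of 6 members is a smaller share than that of all genes. Without the hippocampus libraries of mice 4, 7 and 10 the difference fell to 0.42 (SE 0.16, edgeR adjusted p = 0.0387). Without those of mice 2, 4, 7, 9 and 10 and the cortex libraries of mice 8 and 9 it was 0.35 (SE 0.19, edgeR adjusted p = 0.161), and the call was lost. The part of thalamic tissue in the regional difference was not tested, and in these bulk samples more cells of a type and more RNA per cell cannot be told apart.

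Cbln1, the founding member of the family, was lower in hippocampus than in cortex in 9 of 10 mice, but passed the regional test only with libraries left out. Its level in cortex was 42.0, 65.4, 47.5, 44.1 and 40.2 CPM in WT mice 1 to 5 and 45.7, 48.4, 64.7, 58.5 and 38.2 CPM in Ube3aOE mice 6 to 10. In hippocampus it was at 25.6, 57.6, 23.0, 27.1 and 22.2 CPM in WT and at 23.3, 40.5, 29.1, 31.2 and 113 CPM in Ube3aOE. Mouse 10 was the only mouse with more Cbln1 in hippocampus than in cortex, and its library had both the highest thalamic sum and, of the habenular markers, Pou4f1 at 12.0 and Gpr151 at 14.4 CPM, against at most 2.0 and 2.9 CPM elsewhere in hippocampus. All 7 habenular markers summed to 238 CPM in it, against 97.6 to 162 in the other hippocampus libraries and 172 to 224 in cortex. Mouse 2, next in Cbln1, had a thalamic sum of only 190 CPM. Mouse 7, after it, had 682 CPM, and mouse 4, with 580 CPM, had 27.1 CPM of Cbln1. With all libraries the log2 difference between regions did not pass the test, at -0.36 (SE 0.26, edgeR adjusted p = 0.270). Without mouse 10 it was -0.72 (edgeR adjusted p = 0.00378), and without the hippocampus libraries of mice 4, 7 and 10 it was -0.73 (SE 0.20, edgeR adjusted p = 0.0067). Without these 7 libraries it was -0.89 (SE 0.12, 95% interval -1.14 to -0.64, edgeR adjusted p = 1.6e-05). They include the hippocampus libraries highest in Cbln1, those of mice 10, 2, 7 and 9. The SE and p-value do not account for that choice. The cortical level was highest in mice 2, 8 and 9, the same libraries with the lowest sums of neocortical markers.

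Cbln4, the cerebellin that also binds Dcc and Neo1, was a low transcript in most cortex libraries and a moderate one in hippocampus. In WT cortex it was at 3.1, 15.6, 5.9, 4.2 and 4.1 CPM in mice 1 to 5, and in Ube3aOE cortex at 3.6, 2.8, 64.9, 41.8 and 4.3 CPM in mice 6 to 10. In hippocampus the values were 17.6, 33.1, 16.9, 19.8 and 13.2 CPM in WT and 15.2, 18.4, 19.6, 27.3 and 53.3 CPM in Ube3aOE. The cortex libraries fell into 7 at 2.8 to 5.9 CPM and 3, from mice 8, 9 and 2, that were higher, and these 3 ranked in the same order by the sum of subicular and retrosplenial markers and of Nr4a2 (154, 145 and 93.2 CPM, against 33.6 to 54.4 CPM in the others). Nts, a marker on the same list, was at 25.5 and 29.3 CPM in the cortex of mice 8 and 9 and at 0.8 to 5.0 CPM in the other cortex libraries. The cortex of mice 8 and 9 was also high in the 7 markers of GABAergic interneurons (650 and 660 CPM, against 462 to 519 in the others) and in 5 markers of Cajal-Retzius cells (214 and 223 CPM, against 109 to 169). In hippocampus Cbln4 was highest in mouse 10, a library low in all these lists. It had 201 CPM of subicular and retrosplenial markers, 442 of interneuron markers and 103 of Cajal-Retzius markers. Mouse 2, next in Cbln4, had the highest subicular and retrosplenial sum (591 CPM), and mouse 9, after it, the highest sum of the interneuron list (1077 CPM). The same library of mouse 9 also had 528 CPM of striatal markers, against 42.6 to 67.5 CPM in the other hippocampus libraries. The part of any of these cells in the level of Cbln4 was not tested. With all libraries the log2 difference between hippocampus and cortex was 0.91 (SE 0.53, edgeR adjusted p = 0.171). Within mice Cbln4 was higher in hippocampus in 8 of 10, all but mice 8 and 9. The fits that follow leave out its highest cortex libraries, and their SEs and p-values do not account for that choice. Without the cortex libraries of mice 8 and 9 the difference was 2.26 (SE 0.37, 95% interval 1.48 to 3.04, edgeR adjusted p = 9.8e-05), and without these 7 libraries it was 1.79 (SE 0.35, edgeR adjusted p = 0.00141). With all libraries it passed the test in limma voom (adjusted p = 0.0280), and in edgeR it passed without mouse 8 (1.37, edgeR adjusted p = 0.0422).

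**Figure D2:**
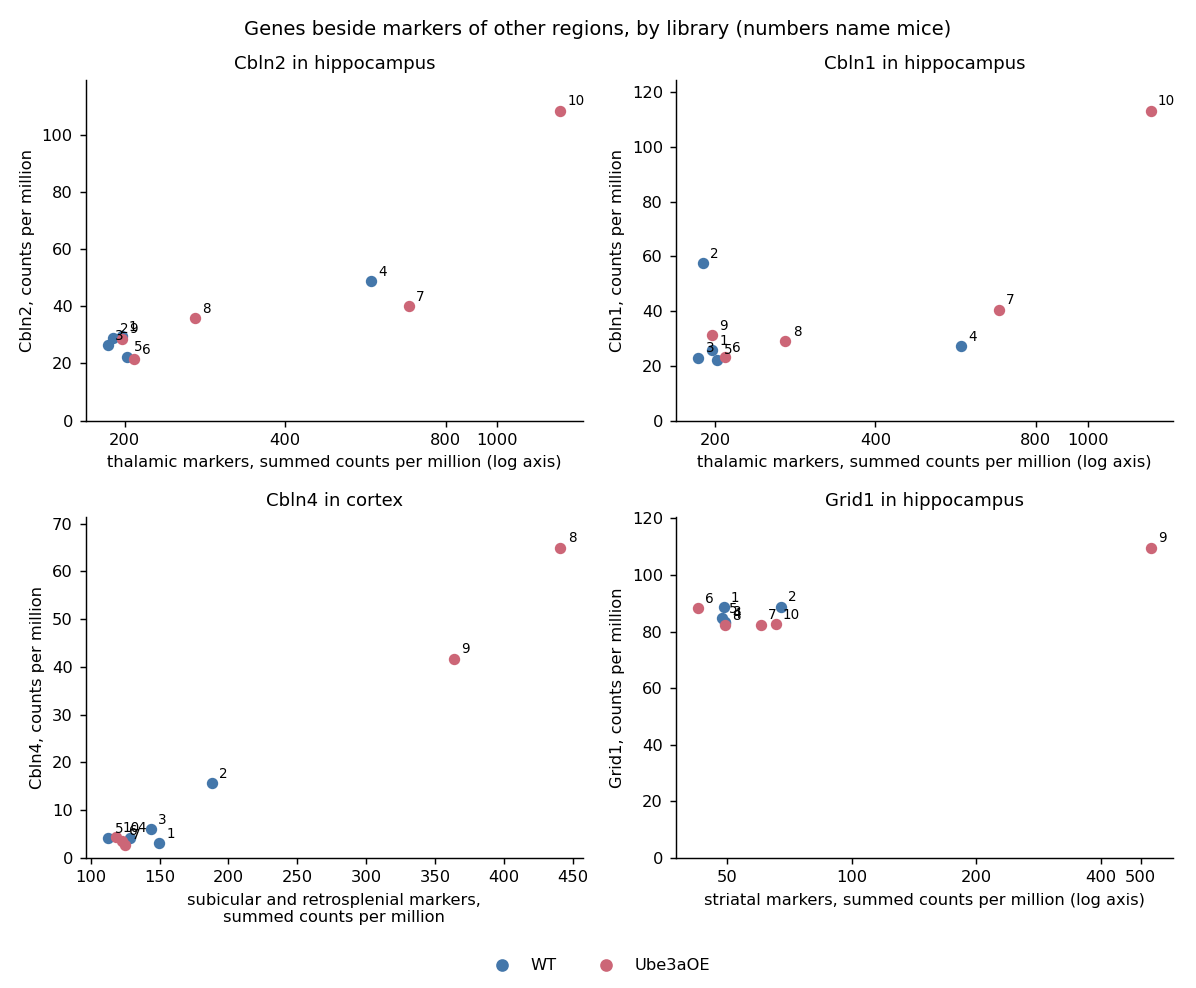
Pairs of a gene (vertical axis, CPM) and a list of regional markers (horizontal axis, summed CPM), with 1 point per library and the mouse number beside it (blue WT, red Ube3aOE). Cbln2 and Cbln1 in hippocampus are highest in mouse 10, with a thalamic sum of 1313; Cbln4 in cortex is highest in mice 8, 9 and 2, with sums of 441, 363 and 188; Grid1 in hippocampus is highest in mouse 9, with a striatal sum of 528.

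Nrxn2, a presynaptic adhesion protein tied to vesicle release, did not pass the regional test with all libraries and was lower in hippocampus in several fits with libraries left out. It was at 696, 708, 655, 715 and 793 CPM in the cortex of WT mice 1 to 5 and at 796, 785, 672, 730 and 740 CPM in that of Ube3aOE mice 6 to 10. In hippocampus it was at 593, 682, 563, 628 and 588 CPM in WT and at 633, 685, 689, 826 and 848 CPM in Ube3aOE, so that the highest WT value lay above the lowest Ube3aOE value and below the other 4. The log2 difference between regions was -0.12 (SE 0.055, edgeR adjusted p = 0.0713), with the lower level in hippocampus in 7 of 10 mice. Leaving out mouse 2, 9 or 10 brought it past the threshold, at -0.14, -0.15 and -0.16 (edgeR adjusted p = 0.0415, 0.0418 and 0.0242). Without these 7 libraries it was -0.27 (SE 0.047, edgeR adjusted p = 0.000137). They include the hippocampus libraries highest in Nrxn2, those of mice 10 and 9 (848 and 826 CPM). The SE and p-value of that fit do not account for the choice.

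Nrxn3, its relative, showed no detectable difference between the regions. It lay between 95.8 and 150 CPM in cortex and between 93.9 and 153 CPM in hippocampus, with a log2 difference of 0.05 (SE 0.093, 95% interval -0.14 to 0.25, edgeR adjusted p = 0.682). Within mice the level was higher in hippocampus in 6 of 10. The low values belonged to different mice in the tissues: mice 7 and 2 were lowest in cortex, at 95.8 and 107 CPM, and mice 3 and 8 were lowest in hippocampus, at 93.9 and 109 CPM.

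Grid1, the delta receptor, was the steadiest of the 6 genes. It ranged from 83.2 to 97.7 CPM in the 10 cortex libraries and from 82.3 to 88.7 CPM in 9 of 10 hippocampus libraries. The remaining library, of mouse 9, was at 110 CPM, and it was also the library with the striatal markers, with 1077 CPM of 7 markers of GABAergic interneurons (442 to 683 in the other mice). The part of striatal tissue in this value was not tested. The regional log2 difference was -0.04 (SE 0.048, 95% interval -0.14 to 0.06, edgeR adjusted p = 0.523), and the level was lower in hippocampus in 9 of 10 mice, all but mouse 9. In each of those 9 mice the difference was at most 0.14 on the log2 scale.

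With libraries left out, 3 of the 6 members passed the regional test in each fit, against 1 of 6 with all libraries. They were Cbln1, Cbln2 and Nrxn2 without the hippocampus libraries of mice 4, 7 and 10 (45.5% of all genes called), Cbln2, Cbln4 and Nrxn2 without the cortex libraries of mice 8 and 9 (50.6%), and Cbln1, Cbln4 and Nrxn2 without these 7 libraries (48.6%). With the mouse as a block, which compares the tissues of the same animal, Cbln2 was again the only member to pass, with 55.3% of all genes called.

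**Figure D3:**
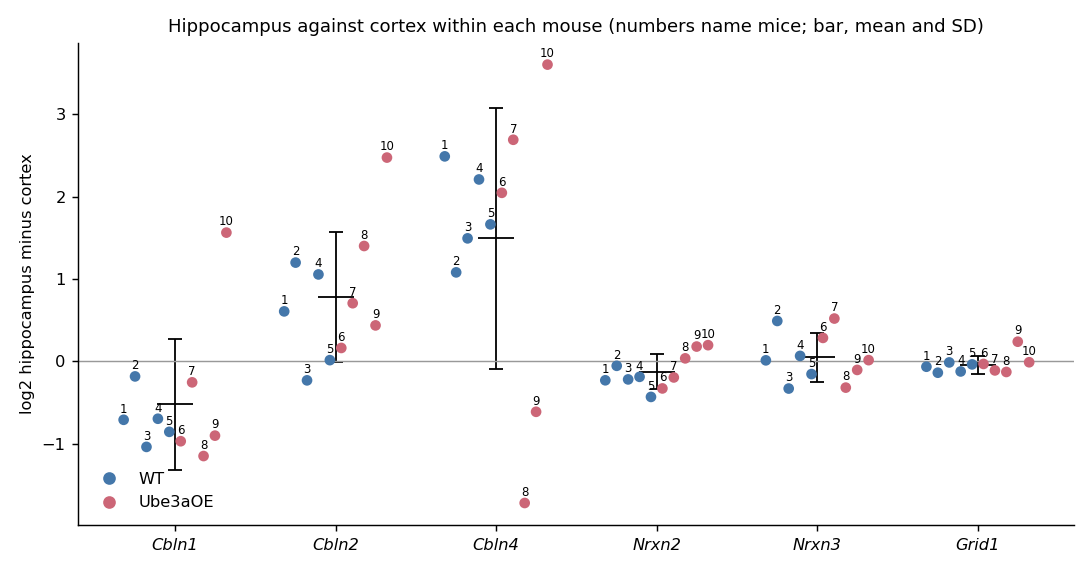
Log2 CPM in hippocampus minus log2 CPM in cortex of the same mouse for each gene (points are mice, named by number; blue WT, red Ube3aOE; bars show mean and SD, n = 10). The sign is shared by 9 of 10 mice for Cbln1 (lower, but for mouse 10), Cbln2 (higher, but for mouse 3) and Grid1 (lower, but for mouse 9), and by 8 of 10 for Cbln4.

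None of the 6 genes passed the test for genotype in either tissue. In hippocampus, 0.00657% of 15220 genes passed (only Ube3a), and 1097 (7.21%) had an unadjusted p under 0.05. In cortex, 0.00669% of 14947 genes passed (again only Ube3a), and 663 (4.44%) had an unadjusted p under 0.05. DESeq2 and limma voom called no member in either tissue. In hippocampus all 6 fitted log2 differences between Ube3aOE and WT were above 0, as were 24 of the 34 other pathway genes described below. The median over all genes was 0.0037. The 6 differences come from the same 10 libraries, so their signs are not independent. Among the ligands the difference was 0.61 for Cbln1 (SE 0.50, 95% interval -0.52 to 1.74), 0.59 for Cbln2 (SE 0.45, -0.42 to 1.61) and 0.41 for Cbln4 (SE 0.38, -0.44 to 1.27). On the presynaptic side it was 0.27 for Nrxn2 (SE 0.088, 0.08 to 0.46) and 0.14 for Nrxn3 (SE 0.13, -0.15 to 0.42). For the receptor Grid1 it was 0.06 (SE 0.081, -0.12 to 0.23). Their edgeR adjusted p-values lay between 0.665 (Nrxn2) and 0.852 (Grid1), and the WT and Ube3aOE libraries of every member overlapped, as did those of all but 1.13% of genes (0.702% in cortex, where all 6 overlapped too). The cerebellin differences rested on mouse 10: without it they were -0.0043 for Cbln1, 0.016 for Cbln2 and -0.0012 for Cbln4. Without the hippocampus libraries of mice 4, 7 and 10, where 0.013% of genes were called, they were -0.20 (SE 0.37), 0.11 (SE 0.17) and 0.04 (SE 0.35). Without those of mice 2, 4, 7, 9 and 10 they were 0.14 (SE 0.13), 0.13 (SE 0.21) and 0.12 (SE 0.16), with 3 WT and 2 Ube3aOE libraries left (0.00647% of genes called). Nrxn2 was at 0.18 (SE 0.070) in that fit, with an edgeR unadjusted p of 0.0263 and adjusted p of 0.999. With all 10 hippocampus libraries it was at 0.12 once trends on length and base composition of the longest transcript were taken out.

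In cortex, Cbln4 had the largest fitted difference, 1.86 (SE 1.03, 95% interval -0.49 to 4.22, edgeR adjusted p = 0.960). It was carried by mice 8 and 9, and without their cortex libraries the difference turned to -0.87 (SE 0.55, edgeR adjusted p = 1.000, 0.00661% of genes called). The differences of the other members in cortex were 0.10 for Cbln1 (SE 0.16), -0.15 for Cbln2 (SE 0.21), 0.06 for Nrxn2 (SE 0.061), 0.10 for Nrxn3 (SE 0.12) and -0.02 for Grid1 (SE 0.054). The intervals for the neurexins and the receptor left room for at most 0.19 (Nrxn2), 0.35 (Nrxn3) and 0.13 (Grid1) in either direction, those for Cbln1 and Cbln2 for 0.45 and 0.62. Whether the genotype effect differed between the tissues was tested as an interaction, which 0 of 15661 genes passed (598, or 3.82%, with an unadjusted p under 0.05, edgeR; 0 with DESeq2 and 0 with limma voom). For the members it ranged from -1.45 (Cbln4, SE 1.07) to 0.74 (Cbln2, SE 0.52), with edgeR adjusted p-values of at least 0.996.

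**Figure D4:**
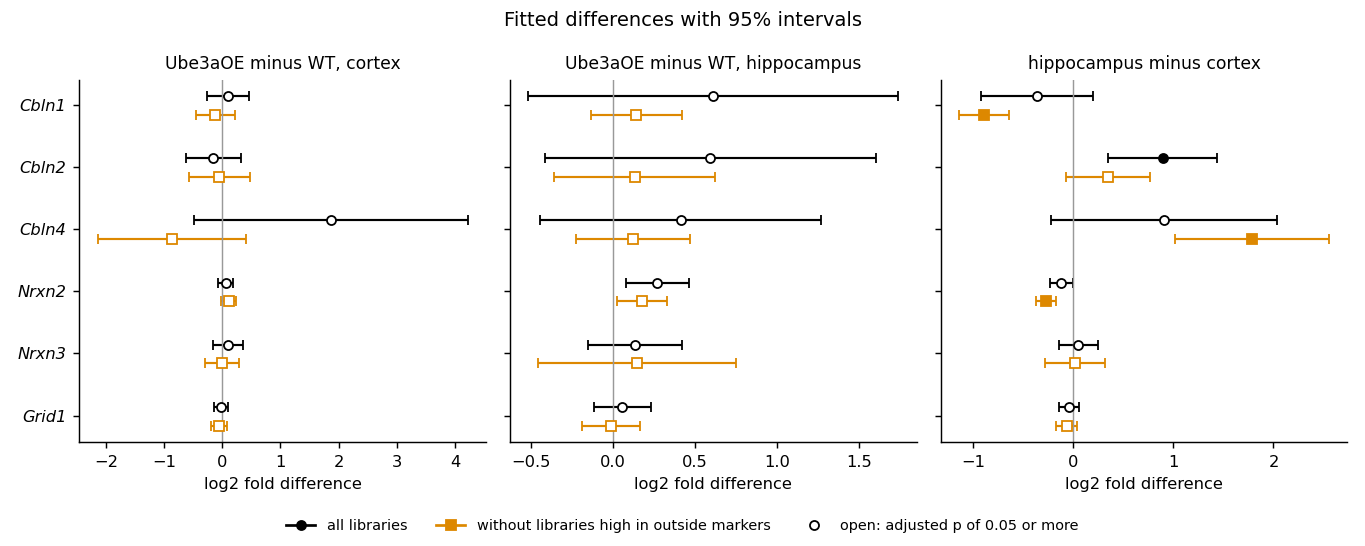
Fitted log2 differences with 95% intervals for genotype in cortex, genotype in hippocampus and region, with all libraries (black) and without those high in outside markers (orange; cortex of mice 8 and 9, hippocampus of mice 2, 4, 7, 9 and 10). Filled symbols have an adjusted p under 0.05, and the horizontal scales differ between panels; for region, Cbln2 is filled with all libraries, and Cbln1, Cbln4 and Nrxn2 are filled without those left out.

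Of 35 other genes of the pathway, listed as ligands, receptors, scaffolds or splice regulators around neurexins and delta receptors, 34 were tested (C1ql4 was too low), 9 were higher in hippocampus and 15 lower, with a median log2 difference of -0.12, against 0.004 over all genes. Over all genes tested 26.2% were higher and 24.5% lower, the background for the counts of each list. The share of higher genes in the pathway was close to it, and the share of lower genes, 15 of 34, was above it. The lists were chosen with earlier results of these data known, so these shares are no test of an excess. No gene of this list passed for genotype in either tissue or for the interaction. Among the receptors that bind Cbln4, Dcc, the netrin receptor, was higher in hippocampus by 1.18 (SE 0.14, edgeR adjusted p = 1.2e-06) and its relative Neo1 was lower, at -0.58 (SE 0.090). Among secreted ligands of neurexins, C1ql2, a C1q-family protein of hippocampal mossy fibers, was higher by 4.28 (SE 0.40) and neurexophilin Nxph2 lower, at -1.29 (SE 0.15). In all, 3 of 9 genes on that list were higher (the C1q-like C1ql1, C1ql2 and C1ql3) and 4 lower.

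Of the 10 postsynaptic partners of neurexins, 2 were higher and 4 lower, with the widest differences in leucine-rich repeat proteins: Lrrtm3 at -0.73 (SE 0.16) and Lrrtm1 at 0.44 (SE 0.064). Khdrbs2, an RNA-binding regulator of the neurexin insert on which cerebellin binding turns, was lower, at -0.34 (SE 0.084), the only 1 of 3 such regulators to pass. Among 6 intracellular scaffolds 2 were higher, Lin7a most (0.53, SE 0.10), and 3 lower, Lin7b most (-0.39, SE 0.090). Of 4 intracellular partners of delta receptors, Shank2, a scaffold of the postsynaptic density, was lower, at -0.71 (SE 0.074), as was Gopc. Grid2ip, which links a delta receptor to the cytoskeleton, was higher, at 1.33 (SE 0.54, edgeR adjusted p = 0.0488). It was at 9.3, 11.6 and 25.4 CPM in the hippocampus of mice 4, 7 and 10 and at 0.9 to 2.3 CPM in that of the other mice, and without these 3 libraries the difference was -0.27 (SE 0.22, edgeR adjusted p = 0.345). The other 10 genes given with a difference here kept their sign and passed the test without these 7 libraries.

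**Figure D5:**
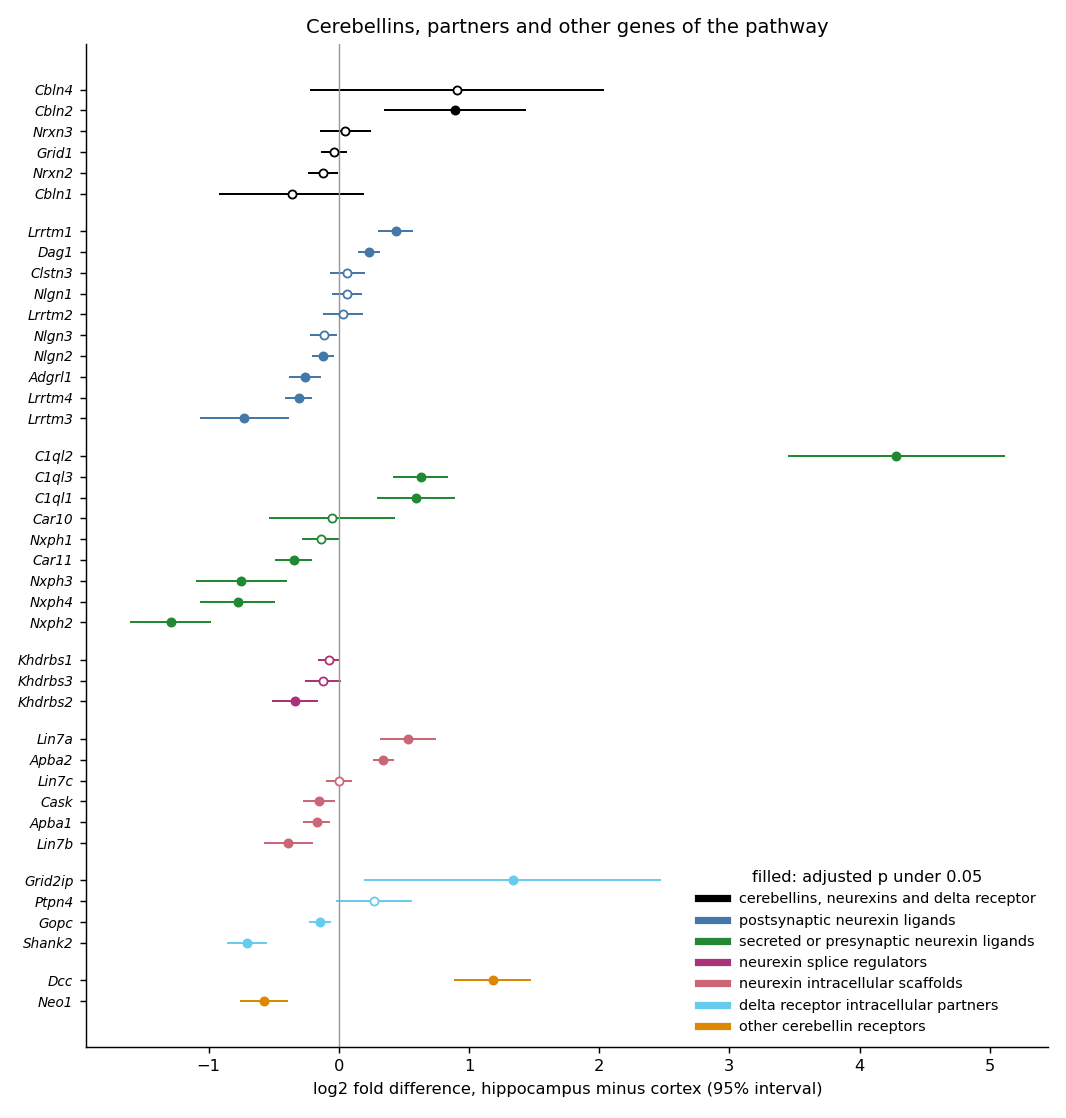
Log2 difference between hippocampus and cortex with its 95% interval for the 6 genes (top) and 34 other genes of the pathway, by list, from all 20 libraries; filled symbols have an adjusted p under 0.05. Cbln2 is the only filled symbol among the 6, and the farthest genes are C1ql2 (4.28), Grid2ip (1.33) and Nxph2 (-1.29).

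The genes whose levels followed each member most closely were ranked by Pearson's r of log2 CPM over the 20 libraries, which share mice, tissue and dissection, so r describes these libraries and has no p. Gm2694 was closest to Cbln1, with r = 0.93 over all libraries, 0.92 in hippocampus and 0.94 in cortex. It is a long noncoding RNA gene on the plus strand at chr8:87460469-87525554, an interval that holds Cbln1 on the other strand, and no exon of one overlaps an exon of the other. Gm2694 was at 7.5 CPM in the hippocampus of mouse 10 and 6.3 CPM in that of mouse 2, against 1.5 to 3.4 CPM in the others, and in cortex it was highest in mice 8, 2 and 9, at 6.8, 5.4 and 5.2 CPM. Next to it were Cyb561 (r = 0.88) and P2rx2 (0.87), and after group means were removed Gm2694 (0.92), Srgap1 (0.90) and Pdp1 (0.86).

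Cbln2 was followed by Clcn5 (r = 0.92), Prkch (0.90) and Zfp423 (0.89), and after group means were removed by Clcn5 (0.89), Rora (0.88) and Zfp423 (0.87). Prkch, a protein kinase C gene, was at 37.6, 48.3, 17.6 and 91.2 CPM in the hippocampus of mice 4, 7, 8 and 10 and at 6.4 to 11.5 CPM in the others. In cortex alone r was lower, 0.63 for Clcn5, 0.60 for Prkch and 0.66 for Zfp423. Cbln4 was followed by Gm9866 (r = 0.94), Tekt5 (0.93) and Tmeff2 (0.93), and after group means were removed by Tekt5 (0.95), Gm9866 (0.95) and Crtac1 (0.93). Before that removal, r in hippocampus alone was 0.75 for Gm9866, 0.71 for Tekt5 and 0.72 for Tmeff2. In cortex alone it was 0.95, 0.98 and 0.97. Crtac1, a secreted matrix protein, was at 104 and 103 CPM in the cortex of mice 8 and 9 and at 40.7 to 54.7 CPM in the other cortex libraries.

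The partners had different neighbours. Nrxn2 was closest to Cep170b (r = 0.90), Cbarp (0.88) and Hcn4 (0.88), and within groups to Cspg5 (0.89), Minpp1 (0.88) and Cep170b (0.88). In cortex alone, with group means kept, r with Nrxn2 was 0.72 for Cep170b, 0.92 for Cbarp and 0.54 for Hcn4. Nrxn3 was closest to Tcaf1 (0.87), Chd6 (0.84) and Unc80 (0.84), a subunit of a sodium leak channel, and within groups to Tcaf1 (0.87), Disp2 (0.86) and Chd6 (0.85). Grid1 was closest to Aplp1 (0.82), Dlx6 (0.76) and Khsrp (0.75), and within groups to Ahi1 (0.87) and Aplp1 (0.84). Dlx6, a transcription factor of GABAergic neurons, was at 19.4 CPM in the hippocampus of mouse 9, against at most 6.7 CPM in the other hippocampus libraries, and r of Dlx6 with Grid1 was 0.19 in cortex alone. There r with Grid1 was 0.71 for Aplp1 and 0.52 for Khsrp.

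Among themselves the 6 genes moved together only in part. After group means were removed, r was 0.58 between Cbln1 and Cbln4, 0.52 between Cbln1 and Cbln2 and -0.03 between Cbln2 and Cbln4. Without that removal these values were 0.20, 0.13 and 0.31. In hippocampus mouse 10 was highest in Cbln1, Cbln2 and Cbln4 (113, 108 and 53.3 CPM), and r without this library was not computed. In cortex mice 2 and 8 were highest in Cbln1 (65.4 and 64.7 CPM) and lowest in Cbln2 (12.5 and 13.5 CPM). With group means removed, Grid1 had r of -0.47 with Cbln2 and -0.03 with Cbln1, and the neurexins had r of 0.13 with each other. Nrxn2 had r of 0.49 with Cbln1 and 0.47 with Cbln2 (0.63 and 0.14 without that removal).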

How the data were processed

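The authors deposited raw counts, 1 whole number of reads per gene and library, without normalization. The submitters' processing notes name HISAT2 2.1.0, HTSeq 0.11.2 and the builds GRCm38 and mm10. The kit was stranded, and the annotation release and strand setting are not given in the sources used here. Each file ends in 5 summary lines, which were left out, so 69.7% to 81.2% of reads counted on genes. Positions and exon lengths came from GENCODE M21 (98.9% of identifiers matched).

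Group, mouse and sex came from the labels. Tests ran in edgeR 4.0.16 under R 4.3.3 (TMM, filterByExpr, robust quasi-likelihood F test, Benjamini-Hochberg adjustment over all genes, threshold 0.05), with DESeq2 1.42.0 and limma 3.58.1 as alternatives, and plots were drawn in Python 3.11.15 with matplotlib 3.10.9. Genotypes were compared in the 10 libraries of a tissue, regions and interaction in all 20. CPM used TMM factors. For correlations and SDs of log2 CPM the prior count was 2. The fit was tested on simulated data.

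Members and lists were chosen with earlier results of these data known. Named are the 6 members, Ube3a, the pair per pathway list with the largest regional difference past the threshold, the 3 genes most correlated with each member, and markers. Gopc, C1ql1, C1ql3 and C1ql4 were named after their values were seen. Other genes of these families and 1 gene of the correlation ranking are not reported here. Libraries with the same mouse number come from the same animal by the labels. Deviations from group means correlated between the libraries of a mouse with a median r of 0.215 (above 0.1 in 9 of 10 mice), against -0.043 between mice. The deviations of a group sum to 0, so a positive r within mice pulls r between mice below 0. The value between mice is therefore not an independent baseline. No library was a duplicate: between 2 libraries of a group the chi-square per gene was 4.85 to 48.1.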

Additional observations from a re-analysis of the deposited data

Results flagged for a closer look

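In each group of 5 mice, the highest and lowest libraries of each member were compared with the rest, and 7 of 24 groups had a library whose gap to its nearest neighbour exceeded 0.71 of the range. For independent normal values chance flags about 1 in 20 groups. The values here are CPM, the 24 groups share the same 20 libraries, and the share of all genes flagged was not computed. The count of 7 is therefore not a measure of excess. Cbln1 was set apart in mouse 2 in WT cortex (65.4 CPM, next 47.5) and in WT hippocampus (57.6, next 27.1), and in mouse 10 in Ube3aOE hippocampus (113, next 40.5). Cbln2 stood apart in mouse 4 in WT hippocampus (48.7 CPM, next 29.5) and in mouse 10 in Ube3aOE hippocampus (108, next 40.1). Cbln4 was set apart in mouse 2 in WT cortex (15.6 CPM, next 5.9). Grid1 stood apart in mouse 9 in Ube3aOE hippocampus (110 CPM, next 88.3). All 7 were the highest library of their group, and the marker sums of these libraries are given with the results above.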

How the results depend on the processing

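Each fitted difference was recomputed with DESeq2, limma voom, DESeq2 size factors, no filter on low counts, removal of length and GC trends, and each mouse left out. Genotype within a tissue was also fitted with labelled sex and with all 20 libraries together, and region and interaction with the mouse as a replicate block. The number of genes past the threshold for genotype in hippocampus was 1, and 2 with labelled sex or without the hippocampus libraries of mice 4, 7 and 10. In cortex it was 1, and 4 with DESeq2. With each mouse left out these counts stayed at 1, that for the interaction stayed at 0, and that for region ran from 7284 to 7980. A block per mouse gave 8662 regional calls (55.3%), and Cbln2 was at 0.78 (edgeR adjusted p = 0.0187), Cbln1 at -0.52 (0.106), Cbln4 at 1.34 (0.0609) and Nrxn2 at -0.12 (0.0657), so the block changed no call of a member.

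Signs that turned belonged to differences that had not passed the test. With each mouse left out in turn, the genotype difference in hippocampus ran from -0.0043 (without mouse 10) to 0.96 for Cbln1, from -0.0012 (without mouse 10) to 0.67 for Cbln4 and from -0.028 (without mouse 9) to 0.089 for Grid1. In cortex it ran from -0.0019 (without mouse 8) to 0.23 for Cbln1, from -0.30 to 0.016 (without mouse 3) for Cbln2 and from -0.042 to 0.0058 for Grid1, which was above 0 without mouse 2 and at 0.0051 without mouse 10. The regional difference of Nrxn3 ran from -0.010 (without mouse 2) to 0.085, and was -0.0051 without mouse 7. The interaction ran from -0.19 (without mouse 10) to 0.75 for Cbln1, from -0.050 to 0.16 for Nrxn3, below 0 without mouse 3, 5, 6 or 7 (-0.032, -0.0022, -0.010 and -0.050), and from -0.0012 (without mouse 9) to 0.11 for Grid1. Without the libraries that stood apart, Cbln1 turned to -0.20 in hippocampus (mice 4, 7 and 10) and -0.12 in cortex (mice 8 and 9), Grid1 to -0.012 in hippocampus (mice 2, 4, 7, 9 and 10), Cbln4 to -0.87 in cortex, and the interaction of Cbln4 to 0.99. The cause was not tested. The lowest count of a member in a library was 43 (Cbln4), and each group held 5 mice.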
